A study of Rattus norvegicus with 5 samples.

Results

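The 9 genes described here are Tff3, Muc13, Cdh1, Epcam, Krt7, Espn, Fetub, Cltrn and Plac8. They are grouped as genes of epithelia and mucous surfaces, and were measured in a rat insulinoma line and 4 clones made from it. Not all are confined to such tissue, and the protein of Fetub is secreted mainly by liver. The 9 were picked by symbol for an epithelial role and, for most, for a higher signal in the clones of set 5-3 than in those of set 1-1. Each of the 9 is covered by exactly 1 probe set of the array, out of 15866 probe sets and 10411 named genes in all, and all 9 passed the brightness limit for testing, as did 9520 probe sets. Because the difference between the clone sets chose most of the genes, that difference is given below as a description, with no test, and nothing is supported by it.

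Total RNA came from 5 cell populations, with 1 array each. INS-1, the parental line, is a rat insulinoma line that makes insulin and is used as a beta cell model. The 4 clones, numbers 2 and 16 of set 1-1 and numbers 14 and 19 of set 5-3, were derived from INS-1 and carry an FRT site, at which Flp recombinase can insert a gene, together with the tetracycline repressor, which holds an inserted gene off until tetracycline is given. In the plots a clone is named, as in the labels, by its set and its number joined by a point. The labels name no inserted gene and no treatment for any of the 5 arrays, and they do not say what the first part of a clone name stands for or whether the clones of a set share an origin. Each clone is 1 cell line with 1 array, so the spread within a set is the spread between 2 clones, and no repeat culture of a clone or of the parental line was measured.

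The populations carried beta cell markers on every array. Ins1, an insulin gene, read 34381 to 42217, Iapp, the amyloid polypeptide co-secreted with insulin, read 19160 to 33945, and Pdx1, a beta cell transcription factor, read 1454 to 2845. Signals are intensities on an arbitrary linear scale whose trimmed mean was close to 1000 on each array as deposited. A gene's signal can be compared between arrays but not with that of another gene, because probe sets differ in brightness. The 27 probe sets for added poly(A) control RNAs averaged 1.15-fold brighter in the 5-3 clones than in the 1-1 clones and 1.73-fold brighter on the parental array than on the clones. The 18 hybridisation control probe sets gave 0.976 and 0.797 for the same ratios, and the beta-actin probe sets gave 3′ over 5′ ratios of 1.49 to 1.73. Among the poly(A) controls, the probe sets for lys alone were 3.57-fold brighter on the parental array than on the clones. The part of the controls' differences in the results below was not tested. With 1 array of INS-1, handling and cell line cannot be told apart.

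Epithelial cells are held together by E-cadherin (Cdh1), which binds its like on the neighbouring cell and is anchored to actin through catenins, and by further adhesion proteins such as EpCAM (Epcam). Their free surface bears actin-filled microvilli, whose filaments are bundled by proteins such as espin (Espn), and a coat of membrane-bound mucins such as Muc13. Mucous cells secrete trefoil peptides, of which Tff3 is the intestinal one, alongside gel-forming mucins. Islet endocrine cells are themselves of epithelial origin and use E-cadherin and EpCAM for contact within the islet.

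The promoters of the genes are shown because 7 of the 9 genes shared the order of the groups, with set 5-3 above the parental line and set 1-1 below it. RefSeq's promoter table (GRCr8) held 6 of the 9 genes; Cdh1, Fetub and Krt7 had no entry. In the 250 bases before each annotated start, 4 motifs were searched. These were CACCTG on both strands, the E-box bound by the Snail and Zeb repressors; GTTAAT on both strands, a half-site of the hepatocyte nuclear factor HNF1; TGTTTAC on both strands, a forkhead motif; and TATAAA on the forward strand. Capitals mark the matches in the 4 windows below, written 5′ to 3′ on the gene's strand, which is the minus strand for all 4.
Tff3 (chr20:9199334-9199583): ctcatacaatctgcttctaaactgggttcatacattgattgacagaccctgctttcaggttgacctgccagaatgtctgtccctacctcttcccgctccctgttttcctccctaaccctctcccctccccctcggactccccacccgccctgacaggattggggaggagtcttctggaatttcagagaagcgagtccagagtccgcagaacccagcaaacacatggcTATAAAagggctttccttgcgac
Espn (chr5:167942985-167943234): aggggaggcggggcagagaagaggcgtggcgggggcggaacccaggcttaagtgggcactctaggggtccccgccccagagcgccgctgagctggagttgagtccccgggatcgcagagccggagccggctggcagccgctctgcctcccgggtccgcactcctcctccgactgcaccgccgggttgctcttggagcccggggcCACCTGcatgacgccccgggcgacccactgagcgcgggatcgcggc
Cltrn (chrX:34027125-34027374): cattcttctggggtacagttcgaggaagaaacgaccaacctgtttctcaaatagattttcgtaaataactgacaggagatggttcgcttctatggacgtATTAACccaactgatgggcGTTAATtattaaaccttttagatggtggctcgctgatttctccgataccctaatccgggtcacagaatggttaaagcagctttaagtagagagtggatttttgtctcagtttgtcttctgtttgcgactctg
Epcam (chr6:12649679-12649928): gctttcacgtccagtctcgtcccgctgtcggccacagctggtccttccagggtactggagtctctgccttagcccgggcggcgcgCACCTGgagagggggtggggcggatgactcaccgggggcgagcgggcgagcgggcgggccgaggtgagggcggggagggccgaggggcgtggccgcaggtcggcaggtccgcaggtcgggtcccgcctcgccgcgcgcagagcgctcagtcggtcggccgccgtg
The Tff3 window held TATAAA, whose first base lies 23 bases before the start, and 8.06% of the 33469 promoter windows of this length held that motif. Both Espn and Epcam held CACCTG, at 46 and 165 bases before the start, a motif found in 15.9% of all windows. These 2 genes had different patterns over the arrays, as given below. Cltrn held GTTAAT on both strands, at 132 and 151 bases, against 6.45% of all windows with at least 1 match. The windows of Muc13 and Plac8 held none of the 4 motifs, and the forkhead motif, present in 3.21% of all windows, was in none of the 6. The GC content was 73.6% for Espn and 75.6% for Epcam, and 39.2% to 53.6% for the other 4, against a median of 51.2% over all windows. A match is a description of the letters and not a measured binding site.

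Tff3 and Muc13 belong to the secreted layer and the coat of mucous surfaces, and both were higher in the 5-3 clones than in the 1-1 clones. Tff3 (Entrez Gene 25563) read 7592 in INS-1, 960.9 and 976.4 in clones 2 and 16 of set 1-1, and 30294 and 27465 in clones 14 and 19 of set 5-3. Both 5-3 clones lay above the parental array and both 1-1 clones below it, and the 2 clones of each set were close to each other. In fold terms the set 5-3 mean was 29.1 times the set 1-1 mean on the log2(signal + 21.8) scale used throughout, 3.79 times the parental signal, and the parental signal was 7.69 times the set 1-1 mean. Muc13 (Entrez Gene 207126), a membrane-spanning mucin of the gut surface, read 2675 in INS-1, 1005 and 700.0 in set 1-1 and 5433 and 6899 in set 5-3. The groups stood in the order seen for Tff3, with a 7.14-fold difference between the set means and the parental signal 2.28-fold below set 5-3 and 3.13-fold above set 1-1.

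**Figure D1:**
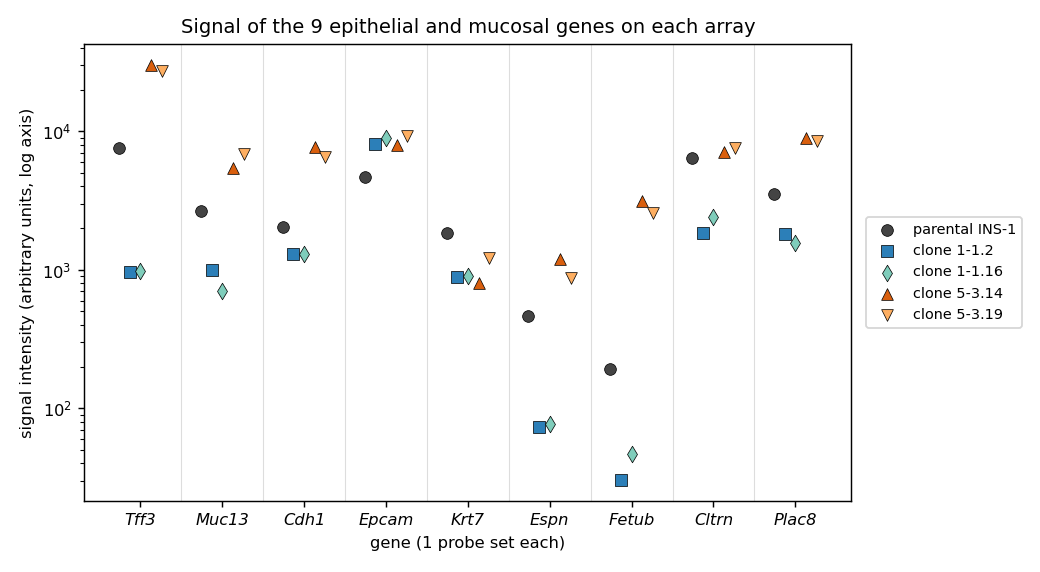
Signal intensity (arbitrary units, log axis) of each of the 9 genes on the 5 arrays; each point is 1 array, circles are parental INS-1, squares and diamonds clones 2 and 16 of set 1-1, and upward and downward triangles clones 14 and 19 of set 5-3. Points are to be compared within a gene: for 7 genes both 5-3 clones lie above the parental point and both 1-1 clones below it, whereas Epcam is lowest and Krt7 highest in the parental line.

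The adhesion genes Cdh1 and Epcam did not share a pattern. Cdh1 (Entrez Gene 83502) read 2048 in INS-1, 1303 and 1306 in set 1-1 and 7768 and 6524 in set 5-3. The set means were 5.38-fold apart, and most of that lay on the side of set 5-3, which stood 3.45-fold above the parental signal against 1.56-fold between the parental line and set 1-1. Epcam (Entrez Gene 171577) read 4689 in INS-1, 8112 and 8954 in set 1-1 and 7926 and 9233 in set 5-3. All 4 clones lay above the parental line, and the sets overlapped, with a difference between set means of 0.01 on the log2 scale.

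Krt7, Espn and the partners of their proteins describe the cytoskeleton. Krt7 (Entrez Gene 300242), a type II keratin of simple epithelia and ducts, read 1834 in INS-1, 882.1 and 903.4 in set 1-1 and 808.1 and 1218 in set 5-3. All 4 clones lay below the parental line and the 2 sets overlapped, so for Krt7, as for Epcam, the signal in the 5-3 clones was not set apart from that in the 1-1 clones. Espn (Entrez Gene 56227) read 466.9 in INS-1, 73.4 and 76.5 in set 1-1 and 1191 and 876.8 in set 5-3. The difference between set means was 10.8-fold, of which 5.05-fold lay between the parental line and set 1-1 and 2.14-fold between set 5-3 and the parental line. The 1-1 signals of Espn were dim, and the size of the fold depended on the offset added before the logarithm, with a log2 difference of 3.43 that became 2.78 when the offset was raised 4-fold and 3.68 when it was lowered 4-fold.

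Of the remaining genes, Fetub had the greatest fold. Fetub (Entrez Gene 83928), which encodes fetuin-B, a protease inhibitor of the cystatin superfamily secreted mainly by liver, read 191.9 in INS-1, 30.3 and 47.0 in set 1-1 and 3139 and 2556 in set 5-3. Both 1-1 signals were near the offset of 21.8, so the 1-1 level cannot be separated from background and the log2 difference of 5.58 became 4.54 and 6.03 with the raised and the lowered offset. Set against the parental line, the 5-3 mean was 13.4-fold higher. Cltrn (Entrez Gene 57395), which encodes collectrin, a membrane protein of beta cells and kidney tubules, read 6403 in INS-1, 1855 and 2399 in set 1-1 and 7062 and 7618 in set 5-3. Here the parental line stood close to set 5-3, 1.15-fold below its mean, while it stood 3.02-fold above set 1-1. Plac8 (Entrez Gene 360914), which encodes a small cysteine-rich protein found in epithelial and immune cells, read 3509 in INS-1, 1814 and 1575 in set 1-1 and 8997 and 8529 in set 5-3. The 5.13-fold difference between sets was divided into 2.49-fold above and 2.06-fold below the parental signal.

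**Figure D2:**
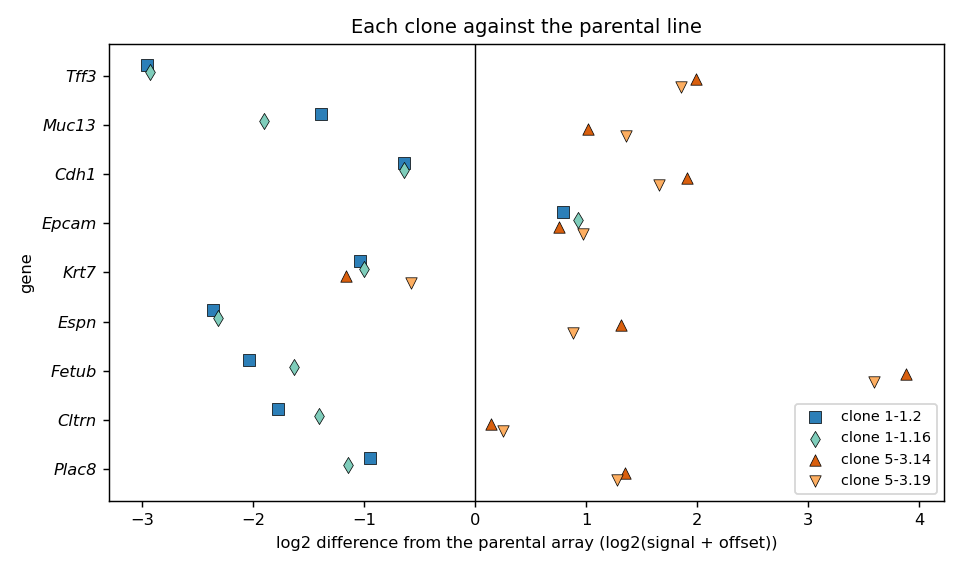
Difference of each clone from the parental array on the log2(signal + 21.8) scale (horizontal axis) for each of the 9 genes (vertical axis); each symbol is 1 clone and the vertical line at 0 is the parental array. Cltrn in the 5-3 clones lies nearest the line, at 0.14 and 0.25, and Fetub in the 5-3 clones farthest above it, at 3.89 and 3.59.

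In all, 7 genes had both 5-3 clones above and both 1-1 clones below the parental line, a pattern shown by 5.71% of all tested probe sets. In count, 7 of 9 had both 5-3 clones at least 2-fold above both 1-1 clones, against 1.02% of all probe sets, and 0 were as far below, against 0.746%. Both 1-1 clones were at least 2-fold below INS-1 for 6 genes, Tff3, Muc13, Fetub, Espn, Krt7 and Cltrn, against 2.01% of all probe sets, and both 5-3 clones at least 2-fold above it for 5, Tff3, Muc13, Cdh1, Fetub and Plac8, against 1.25%. The counts between the sets follow from the choice of the genes. Those against INS-1 follow from it in part, since with sets far apart INS-1 must lie far from at least 1 of them. They also use the same clones and 1 parental array. Nothing is read from any of these counts or shares. Over all tested probe sets limma with Benjamini-Hochberg adjustment at 0.05 called 40, or 0.420%, between the clone sets; calls of the 9 genes in that comparison are not given, since it chose most of them. The median difference of the 9 genes was 2.43 on the log2 scale, and that of all tested probe sets was −0.04.

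**Figure D3:**
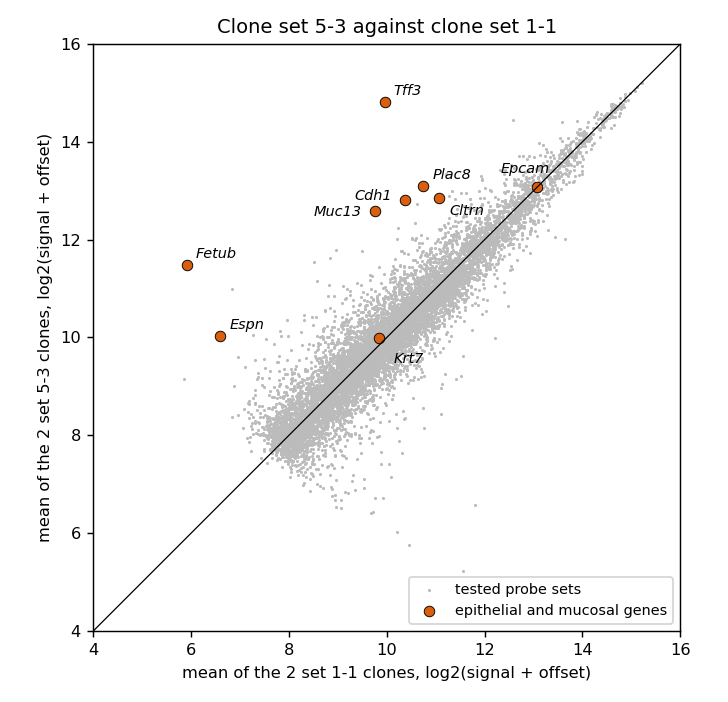
Mean log2(signal + 21.8) of the 2 set 5-3 clones (vertical) against the 2 set 1-1 clones (horizontal) for 9520 tested probe sets, in grey, with the 9 genes as filled circles; the diagonal marks equal signal. In all, 7 genes lie above the cloud or at its upper edge, and Epcam and Krt7 lie on the diagonal, with log2 differences of 0.01 and 0.15.

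The position of the parental line between the sets varied among the 6 genes for which it was measured on both sides, leaving out Fetub, whose 1-1 signals were near the offset. On the log2 scale, with set 1-1 at 0% and set 5-3 at 100%, the parental signal lay at 26.4% for Cdh1, at 44.3% for Plac8, 58.1% for Muc13 and 60.5% for Tff3, and at 68.1% for Espn and 89.1% for Cltrn. For Cdh1 the wider step was therefore the one from the parental line up to set 5-3. For Cltrn the wider step was the one down to set 1-1, and its 5-3 clones were 1.103- and 1.19-fold above INS-1, while those clones were 1.08-fold apart.

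Clones of the same set differed little from each other at these genes. Between the set 1-1 clones the largest difference was 1.42-fold, for Muc13, and between the set 5-3 clones it was 1.49-fold, for Krt7. Thus 0 of 9 genes reached 1.5-fold within either set, where 12.3% of all tested probe sets did between the 1-1 clones and 21.0% between the 5-3 clones. The median fold over the 9 genes was 1.104 in set 1-1 and 1.19 in set 5-3, against 1.17 and 1.22 over all tested probe sets. The genes were chosen on these same clones, so nothing is read from these shares.

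Whether the clones as a whole differed from the parental line was tested on the mean of the 2 sets minus the parental array, a contrast that does not contain the difference between the sets. Of the 9 genes, 0 passed limma's threshold with Benjamini-Hochberg adjustment, as did 0% of all 9520 probe sets. Epcam was higher in all 4 clones by 0.86 ± 0.20 on the log2 scale (SE, limma adjusted p = 0.523), which did not pass. The pattern of all 4 clones above the parental array was shown by 18.4% of all tested probe sets. Krt7 was lower in all 4 clones by −0.95 ± 0.30 (SE, limma adjusted p = 0.671), as 19.7% of all probe sets were. Without adjustment, 6 of the 9 genes, Tff3, Cdh1, Epcam, Fetub, Krt7 and Cltrn, had p under 0.05, against 6.64% of all probe sets. Tff3 (−0.51), Krt7 and Cltrn (−0.70) had the lower mean in the clones and Cdh1 (0.57), Epcam and Fetub (0.95) the higher, on the log2 scale. For Tff3, Cdh1, Fetub and Cltrn that mean joins 5-3 clones above INS-1 with 1-1 clones below it, so it describes neither set. On the linear scale the mean of Tff3 over the 4 clones, 14924, lay above the 7592 of INS-1. The test uses the spread within sets, which the choice of the genes also used, and 1 parental array, so this count is given without weight.

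Other genes of epithelia were taken from lists of adhesion and polarity, keratins and microvilli, mucosal secretion and epithelial transcription factors, and set beside lists of mesenchymal, liver and beta cell genes and of other cell types. The lists, without the 9 genes, held 221 genes, of which 163 were on the array and 66 were bright enough to test. Between the sets limma called 2 of the 66, Myo1d and Fn1, both higher in the 5-3 clones, and 0 lower, where 0.221% of all probe sets were called higher and 0.200% lower. Without adjustment, 13 were higher and 1 was lower at p under 0.05, where 14.8% of all probe sets passed in either direction. Both 5-3 clones lay above both 1-1 clones for 27 of the 66 and below for 5, where the shares over all probe sets were 22.1% and 24.5%.

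Of the partners of Cdh1 and Epcam in adhesion, 15 of 25 genes on the array were tested and 0 were called in either direction. The plakoglobin gene Jup, whose protein links cadherins to the cytoskeleton, read 837.7 in INS-1, 454.5 and 529.8 in set 1-1 and 1438 and 900.6 in set 5-3 (log2 difference 1.18, limma adjusted p = 0.1497). Ctnnd1, which encodes the cadherin-binding p120 catenin, read 780.9, 607.1 and 656.5, and 988.2 and 878.2 (0.55, adjusted p = 0.321 by limma). The order of the arrays was that of Cdh1, at smaller differences that did not pass. Ctnnb1, the gene of beta-catenin, read 7324 in INS-1, and its clones spanned 6791 to 8609, with overlapping sets. The tight junction gene Ocln went the other way, at 2398 and 2204 in set 1-1 against 1714 and 1244 in set 5-3 (log2 difference −0.65, limma adjusted p = 0.279). Cldn7, whose protein binds EpCAM, and Cldn3 and Cldn4 read 6.5 to 61.4 on all arrays, too dim to test. Also too dim, Cldn1 read 50 and 49.6 in set 1-1 against 15.5 and 20.1 in set 5-3. The cadherin gene Cdh17 read 168.7 and 131.8 in set 1-1 against 75.7 and 20.5 in set 5-3. Both were thus lower in both 5-3 clones, while the dim Cdh3 and, by a small margin, Cldn7 were higher. Ctnnb1, Ocln, Cdh17, Cdh3 and the claudins are named after their values were seen. The median log2 difference of the tested adhesion genes was 0.28. Both 5-3 clones lay above both 1-1 clones for 8 of these 15 genes and below for 1, Ocln. Over all tested probe sets these shares were 22.1% and 24.5%.

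Keratin and microvillus genes were tested for 13 of 21, with 1 called higher in the 5-3 clones and 0 lower, and a median log2 difference of 0.32. The called gene, Myo1d, a motor protein of the brush border and cell membrane, read 1228 in INS-1, 540.2 and 500.6 in set 1-1 and 1641 and 1663 in set 5-3 (log2 difference 1.63, limma adjusted p = 0.0434). Its other probe set gave 0.85 (limma adjusted p = 0.212). The call ended without clone 2 of set 1-1 (adjusted p = 0.0836, limma) or without clone 16 of that set (0.149), over a range of 0.0153 to 0.149 in 12 alternatives. Nherf1, a scaffold below the microvillar membrane, read 5264, 3017 and 2994, and 6647 and 6451, and did not pass (1.12, limma adjusted p = 0.0690). The other Nherf1 probe set gave 1.90 and did not pass (limma adjusted p = 0.0830). Krt8 read 18156 in INS-1, 12543 and 12028 in set 1-1 and 23347 and 19938 in set 5-3 (0.81, limma adjusted p = 0.101). Its protein is the type II keratin that, like that of Krt7, pairs with the type I keratin Krt18. Krt18 read 6060, 3818 and 3992, and 4196 and 5671, with the higher clone of set 1-1 close to the lower clone of set 5-3 (0.32, limma adjusted p = 0.566). Krt19, the other type I partner, read 57.7 to 110.4 on all arrays and was too dim to test. Both 5-3 clones lay above both 1-1 clones for 6 of the 13 tested genes and below for 2. Over all tested probe sets these shares were 22.1% and 24.5%. The 2 lower genes were Msn (−0.73, limma adjusted p = 0.434) and Rdx (−0.41, limma adjusted p = 0.536), and the dim Pdzk1 and Krt14 were also lower. These 4 are named after their values were seen.

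**Figure D4:**
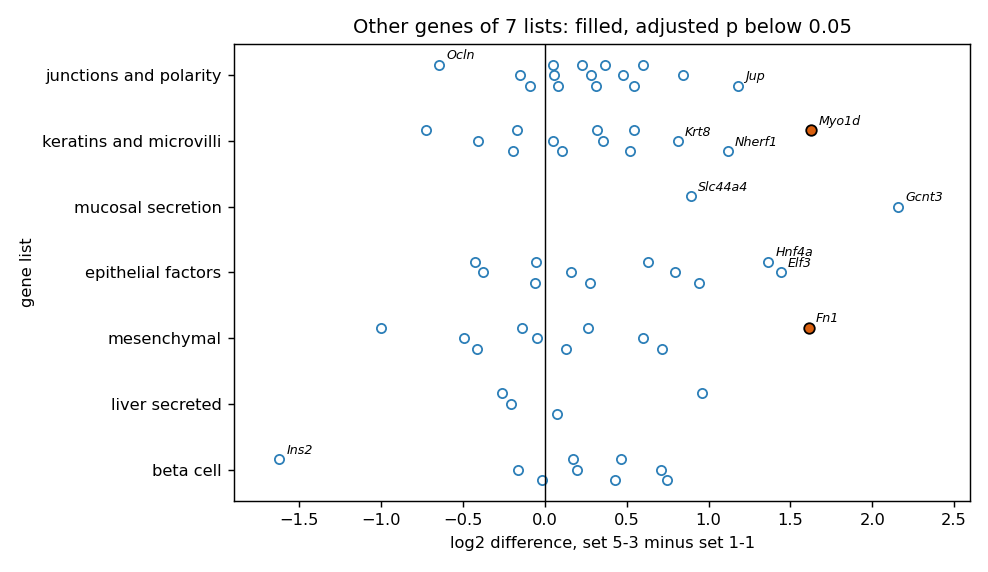
Log2 difference between set 5-3 and set 1-1 (horizontal axis) for tested genes of 7 lists (vertical axis), leaving out the 9 genes; each circle is 1 gene at its brightest probe set, spread vertically for legibility, and filled circles mark limma adjusted p below 0.05. Myo1d at 1.63 and Fn1 at 1.61 are the filled ones, while Ocln at −0.65 and Ins2 at −1.62 lie on the other side of 0.

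Apart from Tff3 and Muc13, genes of mucous secretion were mostly near the floor of the array. Of 22 on the array, 2 were tested, Gcnt3 and Slc44a4, and 0 were called. Gcnt3, an enzyme that branches mucin sugars, read 429.0 in INS-1, 120.2 and 673.6 in set 1-1 and 1686 and 1131 in set 5-3 (log2 difference 2.16, limma adjusted p = 0.214), with unlike values in the 1-1 clones. The choline transporter gene Slc44a4 was high in clone 14 of set 5-3 alone, at 4167 against 1156 to 1502 on the other arrays. The other trefoil genes, Tff1 and Tff2, read 66.3 to 298.0, and both their sets overlapped, so the pattern of Tff3 was not seen at its dim relatives. The mucin genes Muc1, Muc2, Muc4 and Muc5ac read 9.3 to 157.2 on all arrays. No detection calls were used, so these dim signals are not shown to be absence.

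Epithelial transcription factors were tested for 11 of 15 on the array, with 0 called and a median log2 difference of 0.28. Elf3, an epithelial factor of the ETS family, read 835.9 in INS-1, 314.9 and 411.8 in set 1-1 and 1022 and 1009 in set 5-3 (log2 difference 1.44, limma adjusted p = 0.0692). It passed in 2 of 12 alternatives, over a range of 0.0364 to 0.213. Hnf4a, a nuclear receptor of liver, gut and islet, read 433.1, 150.2 and 121.4, and 404.4 and 362.0 (1.37, limma adjusted p = 0.107), and its dim second probe set had overlapping sets. For both factors the parental line stood with the 5-3 clones or near them, above both 1-1 clones.

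Those mesenchymal genes that were tested did not mirror the epithelial ones. Of 25 on the array 10 were tested, with a median log2 difference of 0.04, and the 1 called was higher in the 5-3 clones. This was Fn1, the gene of the matrix protein fibronectin, at 4972 in INS-1, 2314 and 2618 in set 1-1 and 8221 and 6953 in set 5-3 (1.61, limma adjusted p = 0.0382). The call ended without clone 2 of set 1-1 (adjusted p = 0.0720, limma) or without clone 16 of that set (0.0692), over a range of 0.00914 to 0.0900 in 12 alternatives. Cdh2, the gene of N-cadherin, read 1173 in INS-1, 905.8 and 1385 in set 1-1 and 1681 and 2049 in set 5-3 (0.72, limma adjusted p = 0.291), so its signal was no lower where that of Cdh1 was high. The other Cdh2 probe set gave 0.97 (limma adjusted p = 0.180). Ncam1, a neural adhesion gene, read 483.1, 219.4 and 177.5, and 275.3 and 351.0 (0.60, limma adjusted p = 0.393). The other Ncam1 probe set, too dim to test, went the other way (−0.47). Zeb1, a repressor of Cdh1 that binds the E-box, read 321.0, 283.0 and 215.3, and 136.8 and 233.4 in the same order, with overlapping sets (−0.42, limma adjusted p = 0.638). The intermediate filament gene Vim read 6.1 to 17.1 on all arrays, below the offset. Some other genes too dim to test did separate the sets. Lum read 49.3 and 57.9 in set 1-1 against 7.9 and 10.1 in set 5-3. Postn, Dcn and, by a small margin, Tagln were also lower in both 5-3 clones, and Pdgfra was higher. Zeb1, Vim and these dim genes are named after their values were seen.

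Markers of other cells were examined because a bulk array cannot tell fewer cells of a type from less RNA per cell. All 12 duct and acinar markers on the array were too dim to test, among them Krt19, Spp1, Amy2a3 and Prss1, and their summed signal was 944.6 in INS-1, 845.6 and 1015 in set 1-1 and 858.1 and 995.4 in set 5-3, with none at exactly 0. Single markers in this sum did separate the sets, in both directions. Car2 read 230.1 in INS-1, 65.7 and 95.4 in set 1-1 and 218.3 and 191.1 in set 5-3. Its second probe set had the same order of the sets, and Cpb1 and Spp1 were also higher in set 5-3. Pnlip, at 218.1 and 216.6 in set 1-1 against 114.2 and 111 in set 5-3, and Ctrb1 were lower. Car2, Cpb1, Pnlip and Ctrb1 are named after their values were seen. Of 11 leukocyte and endothelial markers 1 was tested, the complement gene C1qa, at 565.1 in INS-1, 349.7 and 262.2 in set 1-1 and 172.6 and 352.4 in set 5-3 (log2 difference −0.27, limma adjusted p = 0.802). Their summed signal was 1180 in INS-1, 885.4 and 787.8 in set 1-1 and 661.8 and 961.5 in set 5-3. Neither sum separated the clone sets. Liver-secreted genes, the group to which Fetub belongs, were tested for 4 of 19, with 0 called and a median log2 difference of −0.07. Of these, Ambp, which encodes a secreted carrier and protease inhibitor, read 14708 in INS-1, 7905 and 9981 in set 1-1 and 5899 and 9252 in set 5-3. Serpina1, the alpha-1 antitrypsin gene, read 506.0, 177.3 and 165.3, and 214.2 and 576.0 (0.96, limma adjusted p = 0.391). Albumin (Alb) read 21.2 to 99.1 at its brighter probe set and Ahsg, the sister gene of Fetub, 86.3 to 171.5, and both were too dim to test.

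Among islet genes, the glucagon gene Gcg marks alpha cells. It read 6875 in INS-1, 2064 and 17772 in clones 2 and 16 of set 1-1, and 20550 and 24434 in set 5-3 (log2 difference 1.88, limma adjusted p = 0.382). Clone 16 of set 1-1 was thus high for Gcg and low for Tff3 and the other 6 genes. Of the 4 markers of other islet cells on the array, Gcg was the 1 bright enough to test, while the delta cell gene Sst read 13.1 to 82.6. Of 9 beta cell genes tested, 0 were called, with a median log2 difference of 0.20. Pax6 read 8395 in INS-1, 7043 and 4132 in set 1-1 and 8947 and 9168 in set 5-3 (0.74, limma adjusted p = 0.264). Ins2 read 28816, 30224 and 5381, and 3953 and 4303 (−1.62, limma adjusted p = 0.349), a pattern that separated the set 1-1 clones from each other, which the 7 genes did not.

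The genes whose signals over the 5 arrays were most like the mean pattern of the 9 genes were sought among 307 tested probe sets with a log2 range of at least 2. That mean followed 7 of the 9 genes, since Epcam and Krt7 had Pearson r of 0.002 and 0.208 with it. By Pearson correlation over these 5 arrays, the first 8 were Nkain1 (r = 0.991), Cmip (0.981), Slc16a10 (0.972), Adgrv1 (0.968), Robo2 (0.966), Slc18a1 (0.965), Guca2b (0.960) and Smpd3 (0.959), and 10 of the 307 had r above 0.95. With 5 arrays that fall into 2 sets and a parental line, such values describe the order of the groups and carry no p. Slc18a1, a vesicular monoamine transporter gene, read 1189 in INS-1, 71.0 and 119.4 in set 1-1 and 1675 and 2409 in set 5-3. Guca2b, which encodes the gut peptide uroguanylin, read 683.3 in INS-1, 154.1 and 276.6 in set 1-1 and 981.8 and 1080 in set 5-3. In each of the 8 both 5-3 clones lay above the parental line and both 1-1 clones below it. The 8 were picked for likeness to a pattern of that order, so nothing is read from this.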

How the data were processed

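Single-colour rat arrays, 1 per cell population, measured RNA of INS-1 and 4 derived clones. The deposited values are linear signal intensities per probe set, as the values themselves show, and their 2% trimmed mean was 1000.24 to 1000.28 on every array; the software behind them is not given in the sources used here. Median signals were 342 to 372, and precision is limited by the 5 arrays. Of 15923 probe sets 57 controls were left out. Genes were named from a platform table (12783 probe sets with 1 symbol, 312 with several, 2771 with none). Values were taken as log2(signal + 21.8), the offset being the 10th percentile of positive signals, which understates folds of dim genes. Probe sets with a mean at or above the 40th percentile (signal about 194) were tested, 9520 in all.

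limma 3.58.1 in R 4.3.3 was fitted to all 5 arrays in 3 groups (2 residual degrees of freedom, intensity trend, Benjamini-Hochberg over all tested probe sets, threshold 0.05); p-values measure only the spread between clones of a set, and the parental array is assumed to vary alike. The fit was tested on simulated data with the same spread on every array and for all probe sets of like brightness. It therefore does not show how the calls fare where probe sets of like brightness differ in spread. Nor can it show whether the parental array varies as the clones do. Companion lists were described at the brightest probe set per gene, and named were genes called between the sets (up to 4 each way) or, with fewer than 2 called, those with the widest gap; other genes, among them dim genes and Pdx1, were picked after their values were seen. The 9 genes and the lists were chosen with earlier results of these data known. Alternatives covered scaling, offset, filter, variance model, probe set choice, pooling of the clones and leaving out each clone.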

Additional observations from a re-analysis of the deposited data

Results flagged for a closer look

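For 7 genes the clone sets lay on opposite sides of the parental array. Set 5-3 lay above it and set 1-1 below it, in both clones each, for Tff3 (log2 difference between sets 4.87), Fetub (5.58), Espn (3.43), Muc13 (2.84), Cdh1 (2.43), Plac8 (2.36) and Cltrn (1.79). Against the parental array, the set 5-3 means ranged from 0.20 for Cltrn to 3.74 for Fetub and the set 1-1 means from −0.64 for Cdh1 to −2.94 for Tff3. The genes were chosen for the difference between the sets, so the difference was not tested for them, and both sets are measured against the same single parental array.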

How the results depend on the processing

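The median log2 difference of the 9 genes between the sets stayed between 2.32 and 2.55 in 13 alternatives, and 2.32 to 2.55 was also the range on leaving out each clone. For Epcam and Krt7 the difference changed sign over 12 alternatives, from −0.10 to 0.12 and from −0.14 to 0.44. Of the 9 genes, 0 were called between the clones and the parental line in all 13. The companion genes called between the sets, 2 as reported, became 0 with no filter, 0 with a 60th percentile filter and 0 without the intensity trend, and 0 to 8 on leaving out each clone: 0 without clone 2, 3 without clone 16 (Gcg, Gcnt3 and Ins2, so neither Myo1d nor Fn1), 4 without clone 14 and 8 without clone 19. Between the clones and the parental line, the count of companion genes was 0, and 0 to 1 on leaving out each clone (Ins2 without clone 2, S100a4 without clone 14 and without clone 19). Over all probe sets the 40 calls between the sets became 70 with median centring, 64 with a larger offset, 10 with no filter, 12 with the stricter filter and 47 to 329 on leaving out each clone. Against the parental line the 0 calls became 1 without clone 2, 15 without clone 14 and 113 without clone 19, and stayed 0 without clone 16. In fits that leave out a clone, the clone left alone in its set is taken to vary as the other set does; the cause of these changes was not tested. Signals near the offset, as for Fetub and Espn in set 1-1, limit the size of their folds. No paired analysis was possible because the clone numbers are not shared between sets.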

Other observations

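Genes next to the 9 genes on the chromosomes were examined after the data were seen. Taking 3 protein-coding genes on each side in the GRCr8 gene order, 27 of 54 neighbours were on the array and 18 were tested. limma called 0 of the 18 between the sets with Benjamini-Hochberg adjustment, and 4 had an unadjusted p under 0.05, as 14.8% of all tested probe sets did. Differences ranged from −0.48 to 1.81 on the log2 scale. The highest was Car5b, a mitochondrial carbonic anhydrase gene next to Cltrn, at 511.4 in INS-1, 255.9 and 157.1 in set 1-1 and 503.4 and 1148 in set 5-3 (limma adjusted p = 0.141). Hpse, the heparanase gene 3 genes from Plac8, read 359.2, 261.3 and 347.6, and 714.1 and 775.2 (1.24, limma adjusted p = 0.118). Abcg1, next to Tff3, read 2984 in INS-1, and its clones spanned 1224 to 2214, with overlapping sets. Cdh3, the P-cadherin gene next to Cdh1, was too dim to test, at 141.6, 83.3 and 116.4, and 199.0 and 224.7.

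Lgals2, a galectin gene of gut epithelium that was too dim on average to test, read 752.2 in INS-1, 15.9 and 23.8 in set 1-1, 2250 in clone 14 of set 5-3 and 85.2 in clone 19. It was picked after its values were seen. Its 5-3 clones were far apart, unlike those of the 9 genes.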
